A study of Sus scrofa with 9 samples.

Results

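The 8 genes described here were grouped as genes of scar matrix and of the response to transforming growth factor beta (TGF-beta). TGFB1 encodes a ligand, RUNX1 a transcription factor, CTGF and TAGLN are response genes, and VCAN, TNC, POSTN and DCN encode matrix components. The 8 genes were taken by gene symbol, through the RefSeq accession of each table row. The row with the longest annotated span stood for a gene. All 8 were among the 3890 genes with a symbol in the table, and all 8 reached the mean of 0.5 RPKM over the libraries that was set for testing. The assay was GRO-seq, in which nuclei resume transcription with a labelled nucleotide so that RNA under synthesis can be pulled down and sequenced, on myocardium of 3 female farm pigs. In every pig the distal LAD (left anterior descending artery) had been blocked with an embolization coil 24 hours before, so the samples called healthy also come from infarcted hearts. Each pig gave 1 healthy, 1 border zone and 1 ischemic sample, and replicates 1 to 3 are pigs 1 to 3 in each zone. No genotype, age or further treatment is given in the labels, and the nuclei came from collagenase-treated tissue of mixed cell types. In such tissue, more cells of a type and more transcription per cell cannot be told apart.

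TGF-beta is secreted in a latent form, held in the matrix, and released by proteases, integrins and thrombospondin. The free ligand binds a pair of serine/threonine kinase receptors that phosphorylate SMAD2 and SMAD3, which enter the nucleus with SMAD4 and switch on matrix and contractile genes. After infarction fibroblasts answer this signal by turning into myofibroblasts and laying down the scar, first as a provisional matrix rich in versican and tenascin C and later as collagen.

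Values are RPKM, reads per kilobase of the annotated span, introns included, and scaled to the reads of the library. Library totals were recovered from the RPKM values. They were 2730083 to 6531658 reads in healthy, 2187977 to 7005976 reads in border zone and 883656 to 2134087 reads in ischemic myocardium. Fold changes are differences of mean log2(RPKM + 0.1) with their standard error (SE), and the test was limma over 2384 positions with Benjamini-Hochberg adjustment and a threshold of 0.05. The labels say that the 3 samples of a zone come from different pigs, and standard deviations (SD) are over these 3. Across all positions the median of the log2 fold changes was 0.21 for ischemic against healthy, 0.22 for border zone against healthy and -0.04 for ischemic against border zone.

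RUNX1, VCAN and TNC had the largest log2 fold changes of the 8 genes in both injured zones against healthy. TGFB1 and TAGLN had smaller ones. POSTN, CTGF and DCN passed in no comparison in the limma fit of all 9 libraries without pig as a block. In ischemic against healthy myocardium POSTN passed with pig as a block and by limma-voom, and CTGF without healthy replicate 1. In ischemic against healthy myocardium 5 of the 8 genes rose, RUNX1, VCAN, TNC, TGFB1 and TAGLN, where 18.5% of all positions tested were called higher. None of the 8 fell by limma, where 9.1% of all positions were called lower, and none was lower at an unadjusted p under 0.05 or by limma-voom. In border zone against healthy myocardium 3 of 8 rose, RUNX1, VCAN and TNC, where 5.79% of positions were called higher. In ischemic against border zone myocardium 0 of 8 passed by limma, where 0.168% of positions were called higher, while 2 had an unadjusted p under 0.05 and 1 passed by limma-voom. Over all positions 442 were higher and 217 lower in ischemic against healthy myocardium, and this split became 337 to 297 with libraries scaled to the same median and 249 to 251 with quantile normalization, while 5 of the 8 genes passed under either. The median log2 fold change of the 8 genes was 1.52, 1.18 and 0.39 in these 3 comparisons. VCAN, TNC and RUNX1 averaged less than 0.5 RPKM in healthy myocardium and reached the testing minimum through the other zones. The 8 genes were chosen with earlier results of these data known, so their counts describe them and show nothing particular to them.

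**Figure D1:**
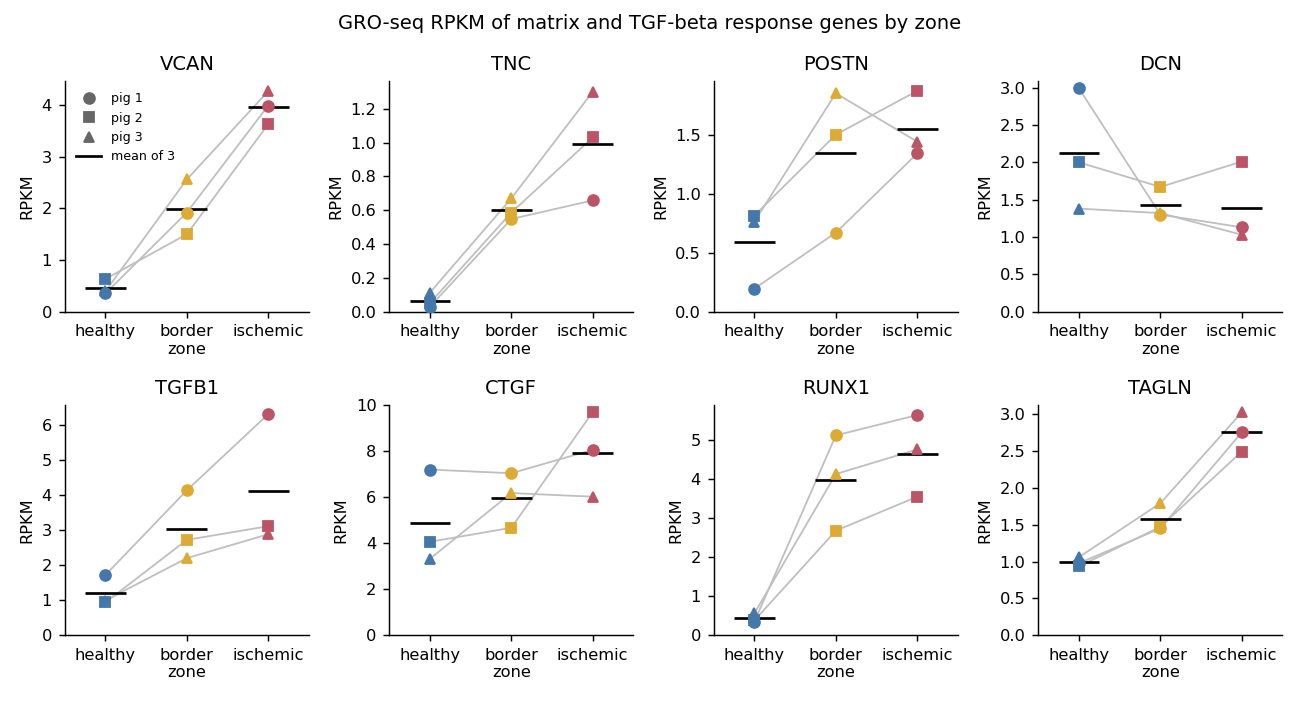
RPKM of each gene (y axis, linear, from 0) in the 3 zones (x axis), with a symbol per pig, grey lines joining the samples of a pig and black bars for the mean of 3. For RUNX1, VCAN and TNC every healthy sample lies below every border zone and ischemic one, while for DCN the zones overlap.

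TGFB1 encodes the ligand TGF-beta 1 (NM_214015, susScr3 chromosome 6 from 45127027 to 45141968, minus strand, a span of 14941 bp of which 15.7% is exon). It measured 1.72, 0.938 and 0.994 RPKM in healthy, 4.13, 2.72 and 2.2 in border zone and 6.3, 3.11 and 2.88 in ischemic replicates 1 to 3. Every border zone and ischemic sample lay above every healthy one, the border zone and ischemic samples overlapped, and pig 1 was the highest in each zone. TGFB1 rose 3.1-fold in ischemic against healthy myocardium (log2 fold change 1.63 ± 0.38, adjusted p = 0.0169), and this call was lost without healthy replicate 2 (adjusted p = 0.0622) or healthy replicate 3 (0.0571). The border zone difference from healthy was 1.25 ± 0.38 (95% interval 0.37 to 2.12, adjusted p = 0.108). That difference was called once pig was a block (adjusted p = 0.0113) and by limma-voom (0.016). Ischemic and border zone samples differed by 0.39 ± 0.38 (95% interval -0.49 to 1.26, adjusted p = 0.676).

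A shorter TGFB1 row lies apart from the gene's long span, on chromosome 6 from 45070836 to 45071847, with a span of 1011 bp. It held 3, 6 and 6 reads in healthy, 25, 35 and 9 in border zone and 28, 1 and 3 in ischemic replicates 1 to 3. The ischemic samples of this row reached from 0.867 to 13 RPKM, which encloses all its healthy and border zone values. Its log2 fold change in ischemic against healthy myocardium was 1.44 ± 0.81 (adjusted p = 0.219), so the call of TGFB1 above is that of the long span.

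RUNX1 is a transcription factor of blood cell development that is also expressed in injured myocardium (NM_001246252, chromosome 13 from 208205560 to 208304379, minus strand, span 98819 bp, 1.4% exon). It measured 0.352, 0.384 and 0.565 RPKM in healthy, 5.12, 2.68 and 4.13 in border zone and 5.64, 3.55 and 4.76 in ischemic replicates 1 to 3. The lowest border zone sample lay above the highest healthy one, and the border zone and ischemic ranges overlapped, with the ischemic sample the higher one in 3 of 3 pigs. RUNX1 rose 8.88-fold in ischemic (log2 fold change 3.15 ± 0.30, adjusted p = 0.000528) and 7.5-fold in border zone against healthy myocardium (2.91 ± 0.30, adjusted p = 0.00156). These comparisons share the healthy samples. The ischemic and border zone samples differed by 0.24 ± 0.30 (95% interval -0.44 to 0.93, adjusted p = 0.74). With 590 healthy, 4545 border zone and 2005 ischemic reads it had the most reads of the 8 genes in both injured zones. Its partner CBFB and the other family members RUNX2 and RUNX3 were not analysed here.

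CTGF, now also called CCN2, encodes connective tissue growth factor, a matricellular protein and a classic TGF-beta response gene (NM_213833, chromosome 1 from 35134660 to 35137098, minus strand, span 2438 bp, 60.5% exon). It measured 7.21, 4.07 and 3.33 RPKM in healthy, 7.05, 4.68 and 6.19 in border zone and 8.07, 9.71 and 6.03 in ischemic replicates 1 to 3. The zones overlapped, with healthy replicate 1 above all 3 border zone samples and 1 of the ischemic ones. The log2 fold change was 0.74 ± 0.34 in ischemic (95% interval -0.03 to 1.52, adjusted p = 0.137) and 0.35 ± 0.34 in border zone against healthy myocardium (-0.43 to 1.12, adjusted p = 0.626). Without healthy replicate 1 the ischemic difference passed (adjusted p = 0.0448). The short span held 13 to 80 reads per library. A second CTGF row of 83 bp inside this span held 6 reads in healthy replicate 2, 6 in border zone replicate 2, 3 in border zone replicate 3, 3 in ischemic replicate 3 and none elsewhere, which is too few to compare zones.

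TAGLN encodes transgelin, an actin-binding protein of smooth muscle and myofibroblasts (NM_001244150, chromosome 9 from 49631082 to 49636704, plus strand, span 5622 bp, 21.3% exon). It measured 0.977, 0.935 and 1.06 RPKM in healthy, 1.45, 1.47 and 1.79 in border zone and 2.75, 2.49 and 3.02 in ischemic replicates 1 to 3. The 3 zones did not overlap, with border zone between healthy and ischemic in every pig. TAGLN rose 2.61-fold in ischemic against healthy myocardium (log2 fold change 1.38 ± 0.18, adjusted p = 0.00175). The steps on either side of the border zone did not pass, with 0.61 ± 0.18 against healthy (95% interval 0.20 to 1.02, adjusted p = 0.0936) and 0.77 ± 0.18 for ischemic against border zone (0.36 to 1.18, adjusted p = 0.0988).

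The spread of TAGLN between pigs was smaller than the mean counting error of its reads. Its 9 values rest on 15 to 58 reads each, for which counting alone gives a coefficient of variation of 22.2% (healthy), 18% (border zone) and 23.1% (ischemic), while the observed values were 6.55%, 12% and 9.53%. For the other 7 genes the observed coefficient of variation was above the counting one in every zone, for CTGF in ischemic samples by little (23.2% against 21.4%). Whether the observed and counting values differ was not tested. The exact 95% counting interval of 1 library, which covers counting error only, ran from 0.547 to 1.61 RPKM in healthy replicate 1 and from 1.43 to 4.05 in ischemic replicate 2, so these intervals overlapped. Over pooled reads, 64 in ischemic against 72 in healthy samples, the ratio was 2.71 with an exact 95% counting interval of 1.91 to 3.85. Among positions with 1 to 30 reads, 32.8% to 53.2% of read counts were multiples of 3, depending on the library. In most libraries this was more than an even spread over these counts would give. Whether reads were counted more than once was not tested. If they were, the counting errors and intervals above are too small. The TAGLN call was lost when the reads of all libraries were thinned to the total of the shallowest one (adjusted p = 0.109).

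VCAN encodes versican, a large chondroitin sulphate proteoglycan of the provisional matrix (NM_001206429, chromosome 2 from 93783370 to 93895027, plus strand, span 111657 bp, 10.5% exon). It measured 0.354, 0.633 and 0.395 RPKM in healthy, 1.92, 1.5 and 2.56 in border zone and 3.99, 3.63 and 4.27 in ischemic replicates 1 to 3. The 3 zones did not overlap, with the border zone between the others in each pig. VCAN rose 7.4-fold in ischemic (log2 fold change 2.89 ± 0.26, adjusted p = 0.000506) and 3.74-fold in border zone against healthy myocardium (1.90 ± 0.26, adjusted p = 0.00542). The step from border zone to ischemic was 0.98 ± 0.26 (95% interval 0.38 to 1.59, adjusted p = 0.123), higher in 3 of 3 pigs, and passed by limma-voom (adjusted p = 0.0288).

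TNC encodes tenascin C, a hexameric matrix glycoprotein of wounds that is scarce in the resting adult heart (NM_214230, chromosome 1 from 286604639 to 286813962, minus strand, span 209323 bp, 2.73% exon). It measured 0.0297, 0.0516 and 0.113 RPKM in healthy, 0.548, 0.586 and 0.67 in border zone and 0.658, 1.03 and 1.3 in ischemic replicates 1 to 3. Every injured sample lay above every healthy one, and in all 3 zones pig 1 was lowest and pig 3 highest. The long span gave 209 healthy, 1573 border zone and 779 ischemic reads. TNC rose in ischemic against healthy myocardium (log2 fold change 2.72 ± 0.45, adjusted p = 0.00412). Its mean RPKM differed 15.3-fold and the logs 6.58-fold, since adding 0.1 RPKM shrinks a difference from so low a level; limma-voom on the recovered reads gave a log2 fold change of 3.84. The border zone call against healthy (2.12 ± 0.45, adjusted p = 0.0353) was lost in 14 of 18 other settings. It was lost without any healthy replicate (adjusted p = 0.0646, 0.0826 and 0.0511 without replicates 1 to 3), any border zone replicate (0.127, 0.0773 and 0.146), or ischemic replicate 2 (0.0505) or 3 (0.0656), and it held with pig as a block. Ischemic and border zone samples differed by 0.60 ± 0.45 (95% interval -0.42 to 1.62, adjusted p = 0.57).

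POSTN encodes periostin, a matricellular protein of activated fibroblasts (NM_001206347, chromosome 11 from 13200044 to 13233733, minus strand, span 33689 bp, 9.76% exon). It measured 0.196, 0.814 and 0.763 RPKM in healthy, 0.669, 1.5 and 1.85 in border zone and 1.34, 1.87 and 1.44 in ischemic replicates 1 to 3. Pig 1 was lowest in each zone, and its border zone sample lay below 2 of the healthy samples. Every ischemic sample lay above every healthy one, but the difference did not pass (log2 fold change 1.41 ± 0.50, 95% interval 0.26 to 2.56, adjusted p = 0.0681). It was called once pig was a block (adjusted p = 0.0206) and by limma-voom (0.0356), and without healthy replicate 1, which held 18 reads, it was 0.88 (adjusted p = 0.165). The border zone difference from healthy was 1.12 ± 0.50 (-0.03 to 2.27, adjusted p = 0.243), higher in 3 of 3 pigs, and 0.59 without healthy replicate 1 (adjusted p = 0.496). A second POSTN accession covers the same span and had the same values in all 9 libraries, so it adds nothing.

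DCN encodes decorin, a small leucine-rich proteoglycan of resident fibroblasts that binds collagen and TGF-beta (NM_213920, chromosome 5 from 96109666 to 96143719, plus strand, span 34053 bp, 4.35% exon). It measured 2.99, 2 and 1.38 RPKM in healthy, 1.3, 1.67 and 1.32 in border zone and 1.13, 2.01 and 1.03 in ischemic replicates 1 to 3. The zones overlapped, and pig 2 had nearly equal healthy and ischemic values. The log2 fold change was -0.57 ± 0.34 in ischemic (95% interval -1.34 to 0.20, adjusted p = 0.241) and -0.48 ± 0.34 in border zone against healthy myocardium (-1.25 to 0.29, adjusted p = 0.469). Without healthy replicate 1 these values were -0.30 and -0.21. The intervals exclude a rise of the size seen for VCAN or TNC.

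**Figure D2:**
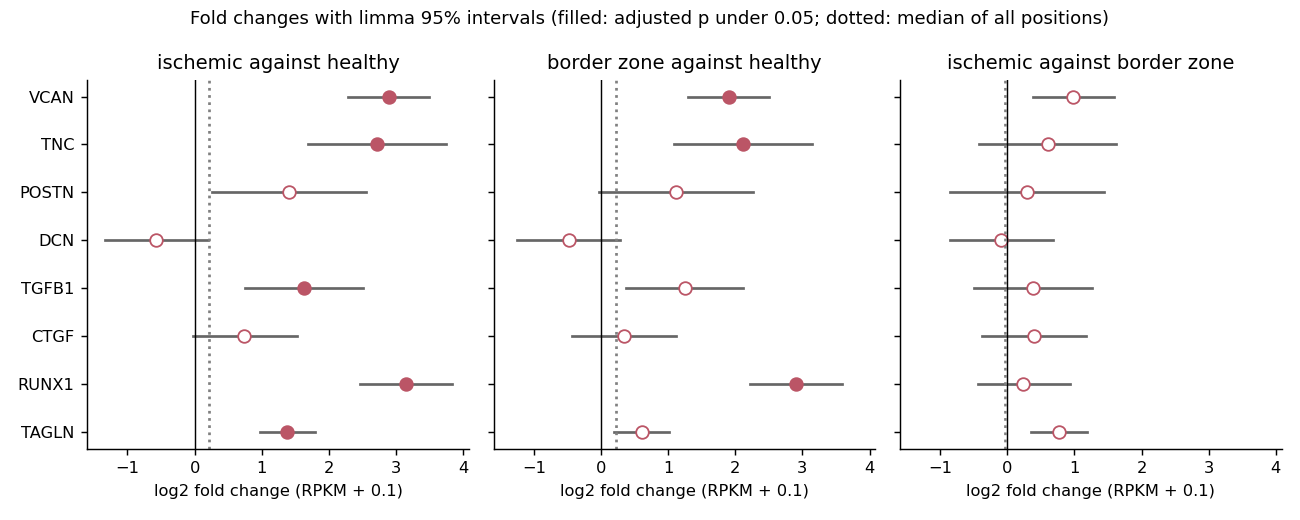
Log2 fold changes of RPKM + 0.1 (x axis) of the 8 genes (y axis) in the 3 comparisons, with limma 95% intervals, filled where the adjusted p was under 0.05 and with a dotted line at the median of all positions. RUNX1, VCAN and TNC are filled on the left and in the middle, TGFB1 and TAGLN on the left only, and none on the right, where intervals of 6 genes include 0.

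The order of the genes by RPKM, a level per kilobase of span, changed between zones. In healthy myocardium CTGF stood highest (4.87 ± 2.06 RPKM, mean ± SD, n = 3), followed by DCN (2.12 ± 0.812), TGFB1 (1.22 ± 0.434), TAGLN (0.991 ± 0.0649), POSTN (0.591 ± 0.343), VCAN (0.461 ± 0.15), RUNX1 (0.434 ± 0.115) and TNC (0.0649 ± 0.0434). In ischemic myocardium CTGF (7.94 ± 1.84) was followed by RUNX1 (4.65 ± 1.05), TGFB1 (4.1 ± 1.91) and VCAN (3.96 ± 0.317), which lay within their spreads of each other. TAGLN came next (2.75 ± 0.262), then POSTN (1.55 ± 0.284), DCN (1.39 ± 0.538) and TNC (0.994 ± 0.321). In the border zone RUNX1 (3.98 ± 1.22) and TGFB1 (3.02 ± 0.996) stood between CTGF (5.97 ± 1.2) and VCAN (1.99 ± 0.532). TAGLN (1.57 ± 0.188), DCN (1.43 ± 0.211) and POSTN (1.34 ± 0.605) lay within their spreads of each other there, and TNC was lowest (0.601 ± 0.0628).

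Groups that did not overlap gave a similar picture to the calls. All 3 ischemic samples lay above all 3 healthy ones for 6 of 8 genes, the 5 called genes and POSTN, as for 28.4% of all positions tested. All 3 border zone samples lay above the healthy ones for 5 of 8, RUNX1, VCAN, TNC, TGFB1 and TAGLN, as for 25.7% of positions. All 3 ischemic samples lay above the border zone ones for 2 of 8, VCAN and TAGLN, as for 8.56% of positions. The same pig was highest in all 3 zones for 3 of 8 genes (pig 3 for TNC and TAGLN, pig 1 for TGFB1), against 19.5% of positions. The same pig was lowest in all 3 zones for 2 of 8 (pig 1 for TNC and POSTN), against 22.4% of positions.

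The other genes of the TGF-beta system moved in part. Of 24 listed ligands and activators 15 were in the table and 10 were tested. Of these 5 rose and 1 fell in ischemic against healthy myocardium, where 18.5% of all positions were called higher and 9.1% lower. The median log2 fold change of the 10 was 1.07. BMP2, TGFB3 and INHBA, which are 3 of the 5, averaged under 0.5 RPKM in healthy samples and reached the testing minimum through the injured zones, so this count and median are partly set by that minimum. BMP2, a bone morphogenetic protein, had 3.16 ± 0.74 (adjusted p = 0.0168, and 0.0724 without ischemic replicate 3), with 7 healthy and 51 ischemic reads. TGFB3, a further TGF-beta ligand, had 1.95 ± 0.55 (adjusted p = 0.0325, and 0.0606 to 0.0976 without any healthy replicate or ischemic replicate 1 or 2). THBS1, thrombospondin 1, which can release TGF-beta from its latent form, had 1.75 ± 0.44 (adjusted p = 0.0219, and 0.0656 without ischemic replicate 1). INHBA, the activin A subunit, had 1.47 ± 0.45 (adjusted p = 0.0422), and the call was lost without healthy replicate 2 or 3, any border zone replicate, or ischemic replicate 1 or 3 (adjusted p from 0.0604 to 0.129). At the INHBA row with the highest mean RPKM the value was -0.06 (adjusted p = 0.975). The remaining rise was ITGB1, integrin beta 1 (0.84 ± 0.19, adjusted p = 0.0146), named after its value was seen. With quantile normalization the calls of TGFB3, THBS1, INHBA and ITGB1 were lost (adjusted p = 0.0847, 0.132, 0.152 and 0.0847), while those of BMP2 and ITGB6 held. With libraries scaled to the same median only INHBA lost its call (adjusted p = 0.0564). ITGB6, a subunit of an integrin that activates latent TGF-beta, fell from 1.68 ± 0.281 to 0.252 ± 0.26 RPKM (-2.56 ± 0.51, adjusted p = 0.00916).

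Of 25 listed receptors and SMAD proteins 16 were in the table and 12 were tested, and of these 2 rose and 1 fell in ischemic against healthy myocardium, with a median of 0.22. Over all positions 27.6% were called in either direction and the median was 0.21. ACVR1B, an activin type I receptor, rose from 0.661 ± 0.0813 to 1.67 ± 0.177 RPKM (1.22 ± 0.20, adjusted p = 0.00408). ENG, endoglin, a co-receptor of endothelium, had 1.04 ± 0.28 (adjusted p = 0.0267, and 0.0514 to 0.0858 without any healthy replicate or ischemic replicate 1 or 3). ACVR2A, an activin type II receptor, had -0.75 ± 0.21 (adjusted p = 0.0316, and 0.0595 to 0.0964 without healthy replicate 1 or 3 or ischemic replicate 1 or 3). The receptor TGFBR1 had 0.49 ± 0.27 (adjusted p = 0.206), the signal carriers SMAD2 and SMAD3 had 0.31 ± 0.21 and 0.38 ± 0.28, SMAD4 had -0.14 ± 0.16 and the inhibitory SMAD7 had 0.14 ± 0.33. In the border zone against healthy none of these 12, and none of the 10 ligands and activators, passed by limma. At an unadjusted p under 0.05 there were 1 and 3, all higher, and limma-voom called 0 and 3.

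Of 22 further target genes listed 10 were in the table and 5 were tested. Of these 4 rose and 0 fell in ischemic against healthy myocardium, against 18.5% and 9.1% of all positions, with a median of 0.82. At an unadjusted p under 0.05 and by limma-voom none of the 5 was lower either. ID2, a dominant-negative helix-loop-helix factor, rose from 2.45 ± 0.559 to 15.7 ± 10 RPKM (2.39 ± 0.52, adjusted p = 0.0136) and was the 1 gene of this list that limma called in the border zone (2.73 ± 0.52, adjusted p = 0.0259), where limma-voom called 2 of the 5 and 3 had an unadjusted p under 0.05. Without any healthy replicate or border zone replicate 1 or 3 that border zone call was lost (adjusted p from 0.0584 to 0.112). PMEPA1, a feedback inhibitor of TGF-beta signalling, had 1.57 ± 0.37 (adjusted p = 0.0169, and 0.0501 to 0.0569 without healthy replicate 1 or 2 or ischemic replicate 1 or 3). The fibrillar collagen genes COL3A1 and COL1A2 had 0.82 ± 0.23 (adjusted p = 0.0306) and 0.81 ± 0.24 (adjusted p = 0.0363). Leaving out healthy replicate 2 or 3 or ischemic replicate 2 ended both calls, as did ischemic replicate 3 for COL3A1 and ischemic replicate 1 or any border zone replicate for COL1A2 (adjusted p from 0.0536 to 0.113). After median scaling of the libraries they had an adjusted p of 0.122 and 0.0866. ID3 and CDKN2B, both known TGF-beta or BMP response genes, are listed at 0 in every library.

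Of 59 further fibroblast and matrix genes listed 21 were in the table and 15 were tested. Of these 7 rose and 1 fell in ischemic against healthy myocardium, against 18.5% and 9.1% of all positions, with a median of 0.81. THBS1, COL1A2 and COL3A1 also stand in the lists above and are counted again here. SPP1, osteopontin, had the largest difference of this list (5.10 ± 0.34, adjusted p = 0.000225), with 0.124 ± 0.0781 RPKM in healthy and 7.27 ± 0.445 in ischemic samples. It was the 1 gene of the 15 that limma called in the border zone against healthy (4.31 ± 0.34, adjusted p = 0.000435), where limma-voom called 3 higher and at an unadjusted p under 0.05 there were 5 higher and 1 lower. SPP1 averaged under the testing minimum in healthy samples. SERPINH1, a collagen chaperone, rose from 2.99 ± 0.89 to 7.99 ± 0.974 RPKM (1.42 ± 0.29, adjusted p = 0.0108). COL5A1, a collagen V chain, had 1.25 ± 0.35 (adjusted p = 0.0314, and 0.0727 to 0.101 without healthy replicate 1 or 2 or ischemic replicate 1 or 3). The remaining rise was P4HA1, a collagen prolyl hydroxylase subunit (1.16 ± 0.31, adjusted p = 0.028, and 0.071 to 0.0898 without healthy replicate 1 or 2 or ischemic replicate 1 or 3), named after its value was seen. The calls of COL5A1 and P4HA1 were lost with quantile normalization (adjusted p = 0.109 and 0.0785) and with median scaling (0.0699 and 0.0607). Those of SPP1 and SERPINH1 held under both. ASPN, asporin, a leucine-rich proteoglycan related to decorin, fell from 1.87 ± 0.395 to 0.319 ± 0.168 RPKM (-2.31 ± 0.41, adjusted p = 0.00564). LUM, lumican, of the same protein family, had -0.63 ± 0.45 (adjusted p = 0.338). DCN, LUM and ASPN all had negative estimates, but only ASPN passed among the 3, so a common fall is not shown.

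Of 9 further smooth muscle and myofibroblast genes tested, a list to which TAGLN belongs by its known expression, 1 rose and 2 fell in ischemic against healthy myocardium. The median of the 9 was -0.46, and 18.5% of all positions were called higher and 9.1% lower there. At an unadjusted p under 0.05 there were 2 higher and 4 lower, and limma-voom called 1 higher and 3 lower. The list also holds genes that act in cardiac muscle, such as MYOCD. Its count and median are therefore not specific to smooth muscle or myofibroblasts, and the part of cardiomyocytes in the falls was not tested. TPM4, a tropomyosin of non-muscle cells, rose from 1.49 ± 0.278 to 4.65 ± 1.89 RPKM (1.52 ± 0.34, adjusted p = 0.015). MYOCD, the coactivator of smooth and cardiac muscle genes, had -3.40 ± 0.38 (adjusted p = 0.00121), and TPM1, a muscle tropomyosin, had -2.02 ± 0.56 (adjusted p = 0.0314, and 0.0658 to 0.0907 without any healthy replicate or ischemic replicate 1 or 3). MYOCD was also the 1 gene of these 5 lists that limma called in ischemic against border zone myocardium (-2.45 ± 0.38, adjusted p = 0.041), a call lost in 14 of 19 other settings, among them leaving out any healthy or border zone replicate or ischemic replicate 1 or 3 (adjusted p from 0.055 to 0.141). In that comparison limma-voom called 1 smooth muscle gene and 1 ligand or activator lower and 1 fibroblast and matrix gene higher. CNN1, calponin, another marker of the contractile state, had 0.28 ± 0.39 (adjusted p = 0.62). ACTA2, smooth muscle actin and the usual myofibroblast marker, had means of 0.613 ± 0.106 RPKM (healthy), 0.463 ± 0.251 (border zone) and 0.419 ± 0.153 (ischemic). Its mean over all libraries fell just short of the testing minimum of 0.5 RPKM, so it was not tested, although its healthy mean was above that minimum.

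**Figure D3:**
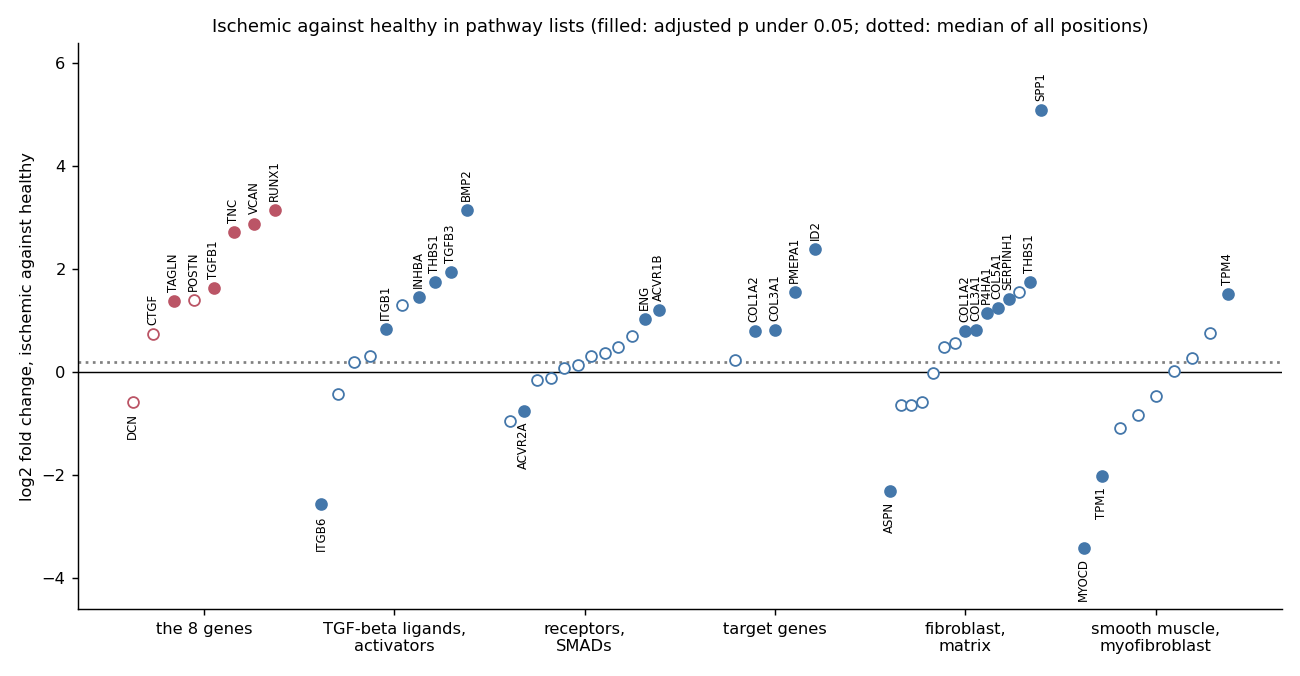
Log2 fold changes in ischemic against healthy myocardium (y axis) of the 8 genes (red) and of tested genes of 5 lists (blue, x axis), filled and named where the adjusted p was under 0.05, with a dotted line at the median of all positions, 0.21. MYOCD is the lowest and SPP1 the highest point.

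Markers of other cells also differed between zones. For scale, 18.5% of all positions tested were called higher and 9.1% lower in ischemic against healthy myocardium. Of 8 tested macrophage genes all 8 rose in ischemic against healthy myocardium, but 6 of the 8 averaged under 0.5 RPKM in healthy samples and reached the testing minimum through the injured zones, so their count is partly set by that minimum. Of the 12 in the table the other 4 were not tested: CD163 and FCGR3A are at 0 in all libraries, MRC1 averaged 0.276, 0.512 and 0.382 RPKM in healthy, border zone and ischemic samples, and MARCO averaged 0.00665, 0.11 and 0.216. The summed RPKM of the 12 ran from 2.08 to 3.81 in the healthy samples, from 12.2 to 25.8 in those of the border zone and from 28.8 to 38.9 in the ischemic ones. Of 5 neutrophil genes 3 rose, with sums of 0.174 to 0.517, 5.89 to 11.9 and 14.4 to 32.1, and all 5 averaged under 0.5 RPKM in healthy samples, where S100A8, S100A9 and S100A12 held no reads. Of 3 endothelial genes 1 rose (sums of 3.81 to 4.6, 4.21 to 5.62 and 6.47 to 8.69). Of 10 cardiomyocyte genes 7 fell, with sums of 355 to 630, 167 to 295 and 68.9 to 243. In border zone against healthy myocardium limma called 4 of the 8 macrophage and 2 of the 5 neutrophil genes higher, against 5.79% of positions. It called 0 of the 3 endothelial and 0 of the 10 cardiomyocyte genes there. Of those 10, 6 were lower at an unadjusted p under 0.05 and limma-voom called 5 lower. The part of these cells in the differences of RUNX1, TGFB1, VCAN and TNC was not tested.

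**Figure D4:**
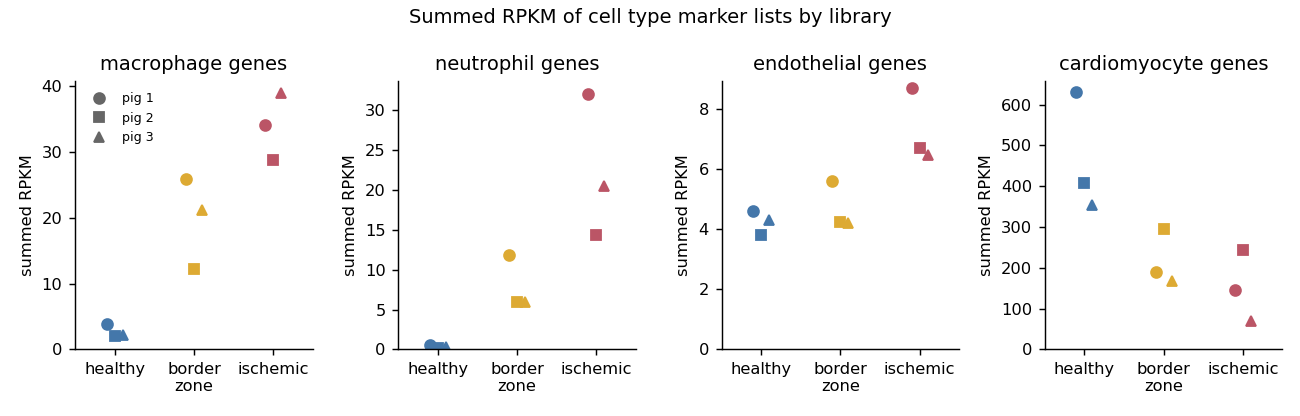
Summed RPKM of 4 cell type marker lists (y axes, linear, from 0) in each library by zone (x axes), with a symbol per pig. Macrophage and neutrophil sums are lowest in the 3 healthy samples and cardiomyocyte sums are highest there.

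For each of the 8 genes the 2 genes with the most similar log2(RPKM + 0.1) over the 9 libraries were sought among 1987 genes by Pearson's r. These r values describe libraries that share pigs and fall into 3 zones, so they mostly follow the zone means. RUNX1 was most like IL1A, interleukin 1 alpha (r = 0.992), and CD86, a co-stimulatory molecule of antigen-presenting cells (0.99). TNC was most like the chemokine receptor CCR1 (0.987) and HMGA1 (0.981), and VCAN most like the serotonin receptor HTR7 (0.99) and PTGS2, the inducible prostaglandin synthase (0.976). TAGLN was most like PLAT, tissue plasminogen activator (0.986), and the receptor ACVR1B (0.981). TGFB1 was most like TALDO1, an enzyme of the pentose phosphate pathway (0.983), and MX1, an interferon-induced GTPase (0.966). DCN was most like TNNC1, cardiac troponin C (0.95), and CYCS, cytochrome c (0.928), which stood at 45.3 and 14.4 RPKM in healthy and 14 and 7.9 in ischemic samples. CTGF was most like PDIA3 (0.959) and RPS3A (0.953), and POSTN had the lowest best r, with PSME3 (0.889) and BSCL2 (0.877).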

How the data were processed

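GRO-seq reads of the 9 libraries were aligned with Bowtie to susScr3, per the submitters' processing notes. The authors deposited RPKM for 4882 transcript positions with span and exon lengths, which the file headers give in base pairs. The counting program, the strand setting and the handling of duplicates and multi-mappers were not given in the sources used here, so antisense reads cannot be told apart from a gene's own. Library totals were recovered by taking the smallest nonzero RPKM times span of a library as a single read and refining that unit. With these totals each RPKM times span was a whole read count within 0.01 reads for 100% of nonzero values. Because the unit was fitted to give whole counts, this is not an independent check of the totals. Symbols came from a Sscrofa11.1 RefSeq table, which matched 4793 positions.

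Positions averaging 0.5 RPKM or more (2384) were fitted as log2(RPKM + 0.1) with limma 3.58.1 in R 4.3.3, all 9 libraries and 3 zones, eBayes with trend and robust, 2-sided, without a block; the script was tested on simulated data. Same-numbered samples come from the same pig, per the labels. Deviations from the zone means correlated with r of -0.04 to 0.18 within pigs and of -0.16 to 0.08 between samples of different pigs. Alternatives are in the closing section. The members and lists were chosen with earlier results of these data known. Named list genes are the called ones with the largest change, up to 4 per list and direction. No promoter or protein sequence was used. Tables and plots used Python 3.11.15.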

Additional observations from a re-analysis of the deposited data

How the results depend on the processing

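Over the 8 genes and 3 comparisons, 419 of 450 alternative values kept their direction and their side of the threshold, 18 calls were lost, 6 were gained and 7 values changed sign. The sign changes were all in ischemic against border zone values that passed nowhere. At the row with the highest mean RPKM, TGFB1 had -0.59 and CTGF -1.8; leaving out single libraries gave POSTN -0.11 to 0.56, DCN -0.37 to 0.08 and RUNX1 -0.01 to 0.44. INHBA, outside the 8, had -0.06 in ischemic against healthy myocardium at its highest-mean row. The filter at a mean of 2 RPKM left 4 of the 8 genes to test, of which 3 were called in ischemic against healthy myocardium, and limma-voom called 1 in ischemic against border zone.

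With pig as replicate block, 6, 4 and 0 of the 8 genes passed in the comparison of ischemic with healthy, of border zone with healthy and of ischemic with border zone samples, as did 752, 205 and 29 positions. The 2 genes gained were POSTN in the first comparison and TGFB1 in the second, and the block changed no other call of the 8.

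Of 659 positions called in ischemic against healthy myocardium in all, 346 were called when the filter was 2 RPKM, where fewer were tested, and 362 (without healthy replicate 2) to 698 without single libraries. For border zone against healthy, 143 became 48 with a pseudocount of 1, 95 without a filter, 76 with the filter at 2 RPKM, 90 with median scaling, 85 with quantile normalization, 298 by limma-voom, 83 with thinned reads, and 36 (without border zone replicate 1) to 174 without single libraries. For ischemic against border zone, 27 became 10, 3, 8, 5, 92 and 7 with the pseudocount of 1, no filter, median scaling, quantile normalization, limma-voom and thinned reads, 1 with only those zones fitted, and 0 (without healthy replicate 3) to 39 without single libraries. The cause of these shifts was not tested. The median number of reads per tested position was 16 to 46 in ischemic, 45 to 94 in healthy and 40 to 134 in border zone libraries. RUNX1, VCAN and TNC had their fewest reads in healthy libraries. TGFB1 had its fewest in ischemic replicate 3, with 38 reads, where healthy libraries held 48 to 97.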
